A study of Mus musculus with 2 samples.

Results

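The genes described here are 43 genes of the actin and tubulin cytoskeleton, chosen by gene symbol from the 27998 genes counted in each of 2 single-cell RNA libraries from mouse spinal cord. They comprise 2 actins, 6 genes that bind actin monomers or turn filaments over, 6 of filament branching, 5 of capping and severing, 8 of myosin and tropomyosin, 7 that bundle filaments or tie them to the membrane, the intermediate filament gene Vim, and 8 of tubulin and stathmin. All 43 symbols matched 1 gene each, all are annotated as protein-coding, and all 43 reached the minimum of 20 UMIs over both libraries. A UMI (unique molecular identifier) marks 1 captured RNA molecule, and because only the 3′ end of each molecule is tagged, UMI levels can be compared between genes without a correction for transcript length.

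Both libraries came from Cx3cr1-CreER::Rosa26-tdTomato+ve mice of the C57BL/6J background that had received 4-hydroxytamoxifen (2 injections of 1 mg at postnatal week 4), so that cells expressing the fractalkine receptor gene Cx3cr1, chiefly microglia, became permanently labelled. Cords were taken 4 weeks later and tdTomato-positive cells were sorted after collagenase digestion at 2 mg/ml for 1 h at 37 °C. The uninjured library came from an age-matched control (695 cells kept) and the injured library from cord 5 days after lysolecithin, a lipid detergent that strips myelin from axons (577 cells kept). The number and sex of the animals behind each library are not given in the labels. Because each group is a single library, the differences below have no measure of animal-to-animal spread and were not tested, and every interval (exact, 95%) covers counting error only.

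The actin cytoskeleton is a pool of monomers in exchange with filaments. Thymosins and profilin hold monomers, cofilin and its partners take filaments apart, the Arp2/3 complex starts branches, capping proteins block filament ends, and myosins pull on filaments that tropomyosins coat. Microtubules are built from pairs of alpha and beta tubulin, and stathmin holds such pairs out of the polymer. In microglia these systems drive the constant extension of fine processes in resting tissue, and the change to a rounded, migrating and phagocytic shape after damage.

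The uninjured library held 2093084 UMIs and the injured library 3095511, with medians of 3003 and 4396 UMIs per cell and no shared cell barcode. The sorted cells carried the microglial markers, at 24005 CPM (UMIs summed over cells and scaled to a common library total) for 10 genes in uninjured and 14569 CPM in injured cells. The 12 genes of homeostatic microglia had a median log2 ratio, injured over uninjured, of −1.17, and 12 injury-associated genes had a median of 3.43. The monocyte marker Ly6c2 had 0 UMIs in both libraries. Summed levels of other markers were low and differed between the libraries, at 121 and 31.0 CPM for 8 endothelial genes and 223 and 124 CPM for 7 oligodendrocyte genes. Other myeloid markers stood at 106 and 5.17 CPM for 7 dendritic cell genes, 204 and 86.6 CPM for 7 neutrophil genes, and 149 and 194 CPM for 9 border macrophage genes. The 7 monocyte genes had 23 and 563 UMIs, and Fn1 made up 522 of the latter. Genes of G2 and M phase stood at 192 and 598 CPM in sum, and 17 early-response genes that tissue dissociation is known to induce stood at 17673 CPM in uninjured and 8222 CPM in injured cells. The part of these shifts in the values below was not tested except where cells were set aside.

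The 43 genes together took 3.63% of all UMIs in uninjured cells and 5.02% in injured cells. Without Tmsb4x, the most abundant of them, the other 42 genes took 2.18% and 2.66%. Seen gene by gene, the median log2 ratio of the 43 was 0.39, against −0.15 over all 9066 measured genes. By size, 7 of 43 were at least 2-fold higher in injured cells, where 7.22% of all measured genes were, and 3 of 43 were at least 2-fold lower, where 11.5% of all were. The 7 were Vim, Cnn3, Tpm4, Capg, Ezr, Gsn and Tubb6, and the 3 were Cnn2, Tubb2a and Tuba1a. At 1.5-fold, 14 were higher (14.4% of all genes) and 5 lower (25.9%). The counting interval lay above 0 for 25 of 43 genes (17.1% of all) and below 0 for 10 (25.8%). Such intervals narrow as UMIs rise, and 39 of the 43 genes had at least 100 UMIs, against 4845 of the 9066. Shares of intervals, here and below, are thus not matched for abundance. Over all genes with at least 100 UMIs the median log2 ratio was −0.08.

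**Figure D1:**
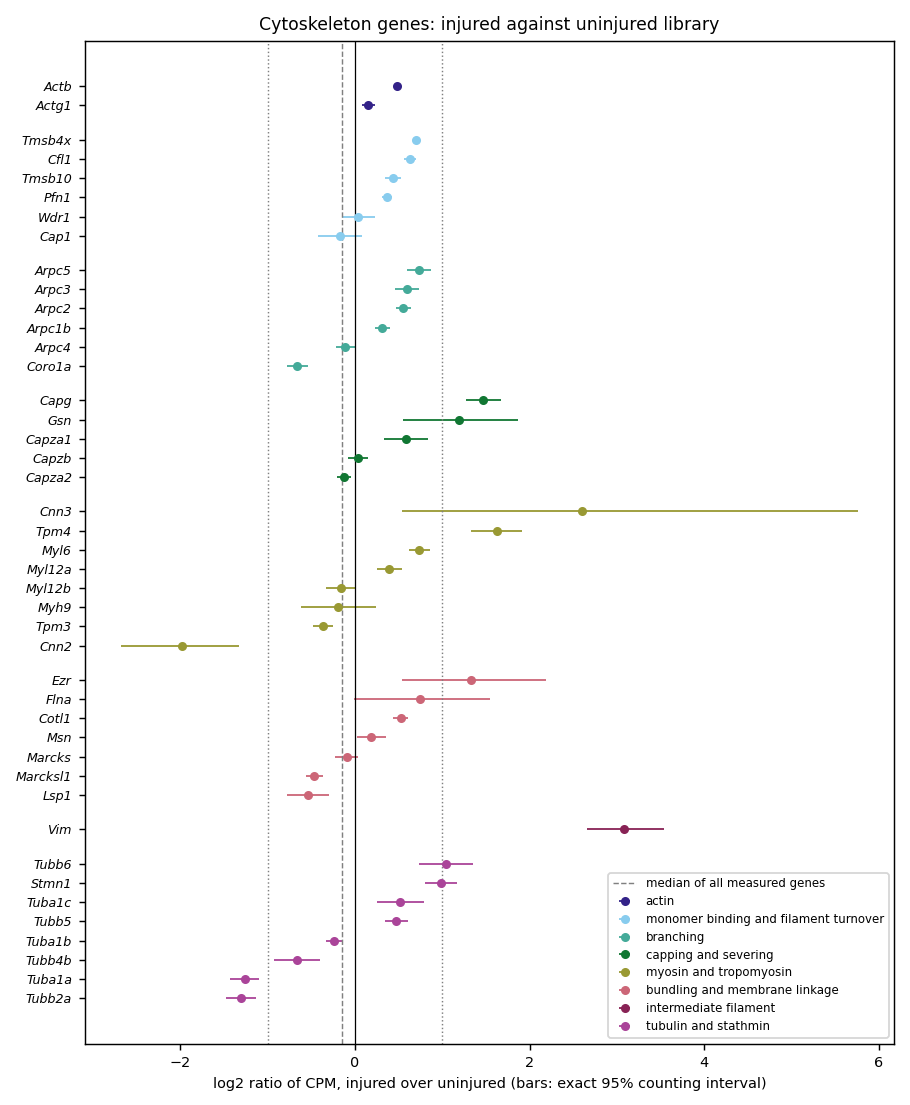
Log2 ratio of CPM, injured over uninjured, for each of the 43 genes, coloured by group. Bars are exact 95% counting intervals, dotted lines mark 2-fold, and the dashed line marks the median of all measured genes at −0.15. Vim stands at 3.08, the tubulins lie on both sides of 0, and most actin turnover and branching genes lie between 0 and 1.

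Levels of actin genes are known to be set in part by serum response factor, which binds a motif called the CArG box and whose cofactor is held back by free actin monomers. Promoter sequence from RefSeq (build GRCm38.p6, 250 bases before to 50 bases after a gene's start) was available for 37 of the 43 genes. A CArG box, searched by its name's usual pattern on both strands, was present in 4 of these 37 (Actg1, Arpc4, Cnn2 and Myl6). By window it was present in 4 of the 44 of these genes, against 1.63% of 32851 windows of the same length. The 4 genes did not move together, with log2 ratios of 0.15, −0.11, −1.98 and 0.74. The AP-1 site TGANTCA was present in Ezr and Myl12a (2 of 44 windows, against 7.81% of all windows). TATAAA was present in Myh9, Tubb2a, Tubb4b and Vim (4 of 44 windows, against 13.6% of all windows). The motif matches of Actg1, Arpc4, Cnn2, Myl6, Vim and Tubb2a overlapped no match of another motif. Sequence before the start is shown for 3 genes, in lower case with the motif in capitals and without any base that GENCODE annotates as untranslated: Actg1 and Cnn2, the actin gene that differed least and the gene with the lowest ratio of the 43, each with a CArG box, and Tubb2a, the tubulin gene with the lowest ratio, with TATAAA. They lie at chr11:120348543-120348745 (minus strand, Actg1), chr10:79988350-79988583 (plus strand, Cnn2) and chr13:34078009-34078258 (minus strand, Tubb2a).
Actg1: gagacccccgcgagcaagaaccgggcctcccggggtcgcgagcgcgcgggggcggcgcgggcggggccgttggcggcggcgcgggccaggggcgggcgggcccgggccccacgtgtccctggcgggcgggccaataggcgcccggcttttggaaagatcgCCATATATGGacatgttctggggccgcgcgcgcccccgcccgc
Cnn2: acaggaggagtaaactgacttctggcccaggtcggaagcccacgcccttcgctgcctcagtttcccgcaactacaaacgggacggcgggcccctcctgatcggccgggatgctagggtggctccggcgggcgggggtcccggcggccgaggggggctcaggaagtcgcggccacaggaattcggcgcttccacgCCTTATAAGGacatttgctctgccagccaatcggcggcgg
Tubb2a: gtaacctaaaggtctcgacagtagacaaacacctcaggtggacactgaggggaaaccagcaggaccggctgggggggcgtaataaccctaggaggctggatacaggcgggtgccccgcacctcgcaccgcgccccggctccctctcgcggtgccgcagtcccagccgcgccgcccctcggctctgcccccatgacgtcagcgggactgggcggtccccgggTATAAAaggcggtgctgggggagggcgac
In these sequences the CArG box began 90 bases before the start of Actg1 and 56 bases before that of Cnn2, and TATAAA began 29 bases before the start of Tubb2a. The TATAAA of Vim began 32 bases before its RefSeq start, inside an untranslated part of a longer GENCODE model. A list of 15 serum response factor genes and known targets shares Actb, Actg1, Tpm3, Tpm4, Cnn2 and Flna with the 43. It also shares Fos and Egr1 with the early-response genes of dissociation, and their part was not tested. Of 13 measured, 2 were at least 2-fold higher (7.22% of all genes) and 4 at least 2-fold lower (11.5%). Their median was −0.32 (−0.15 over all genes). The summed level of the list went the other way, at 9865 CPM in uninjured and 10768.5 CPM in injured cells (log2 0.13). Srf itself had 48 UMIs in uninjured and 31 in injured cells (22.9 and 10.0 CPM, log2 −1.20, interval −1.90 to −0.51).

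The cytoplasmic actins differed unequally. Actb, which encodes beta-actin (chromosome 5, 142903115 to 142906754 in GRCm38), stood at 5166 CPM in uninjured and 7240 CPM in injured cells, and Actg1, gamma-actin (chromosome 11, 120345690 to 120348542), at 1146 and 1273 CPM. Both were higher in the injured library, Actb by a log2 ratio of 0.49 (0.45 to 0.52) and Actg1 by 0.15 (0.08 to 0.23). Actb accounted for 81.8% of the UMIs of both actins in uninjured cells (exact interval 81.2 to 82.5) and 85.0% in injured cells (84.6 to 85.5). Coding parts of actin genes are near-identical and have many pseudogene copies, so the split of reads among them is uncertain. The direction for Actg1 did not hold in every set of cells. Its ratio was −0.05 once cells with at least 2 UMIs of S, G2 or M phase genes were set aside, which left 334 uninjured and 145 injured cells, and it was below 0 within 3 clusters of cells described below.

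Actb also had the highest variance over mean across cells of the 43. With every cell thinned to 1500 UMIs, the median cell held 4.5 Actb UMIs if uninjured and 5 if injured, while the cell at the 90th percentile held 17.7 and 22. The variance over the mean was 14.8 in uninjured and 20.5 in injured cells, against 1.28 and 1.49 for Actg1, where 1 is the value of pure counting noise. Without thinning, the 10 richest cells held 12.2% of all Actb UMIs in uninjured and 22.2% in injured cells. The medians of the libraries thus lay close together, and their upper tails lay apart. The Actb ratio was 0.80 without the cluster of cells highest in Actb, described below, and 0.20 without cells carrying at least 2 UMIs of S, G2 or M phase genes, the highest and lowest of 15 alternative settings.

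Among genes that bind monomers or turn filaments over, thymosin beta 4 and cofilin had the highest ratios. Tmsb4x, thymosin beta 4, the main protein that holds actin monomers, stood at 14490 CPM in uninjured cells, at rank 3 of all genes, and at 23597 CPM in injured cells, at rank 2. Its log2 ratio was 0.70 (0.68 to 0.72), and 0.36 to 0.85 over the alternative settings. Its relative Tmsb10 stood at 712 and 966 CPM (log2 0.44, 0.35 to 0.53). Pfn1, profilin, which feeds monomers to growing ends, stood at 1721 and 2223 CPM (0.37), and Cfl1, cofilin, which severs old filaments, at 1165 and 1803 CPM (0.63, 0.56 to 0.70). The genes of proteins that help cofilin lay near 0, Cap1 with 224 and 294 UMIs and Wdr1 at 192 and 197 CPM, both with intervals that included 0. In sum the 6 genes took 1.84% of all UMIs in uninjured and 2.89% in injured cells, with 4 of 6 intervals above 0 (17.1% of all genes) and 0 below (25.8%).

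For Tmsb4x the medians also lay apart. In thinned cells the median was 20 Tmsb4x UMIs in uninjured and 26 in injured cells, and the 75th percentile 26 and 41. The lower part of the distribution nearly coincided, with 10th percentiles of 12 and 13. The variance over the mean was 3.23 in uninjured and 10.5 in injured cells.

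**Figure D2:**
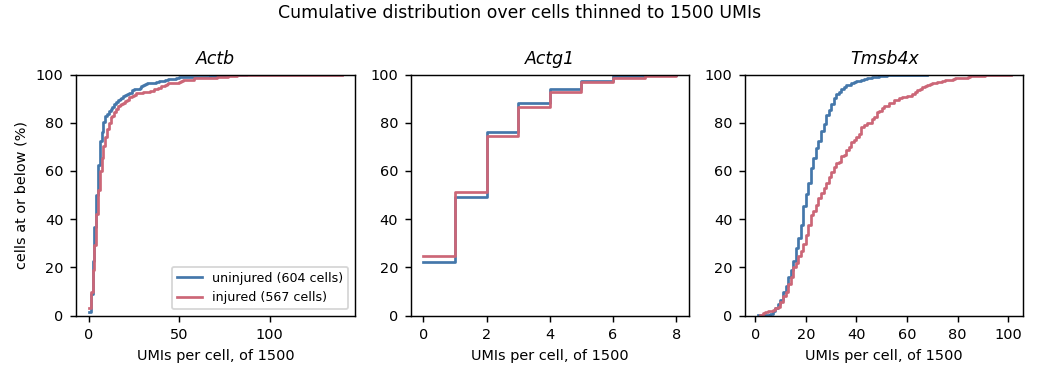
Share of cells at or below each number of UMIs, for Actb, Actg1 and Tmsb4x, in 604 uninjured and 567 injured cells thinned to 1500 UMIs each. The curves of Actg1 nearly coincide, those of Actb part mainly in the upper tail (90th percentiles of 17.7 and 22), and those of Tmsb4x part from the median upward (medians of 20 and 26).

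Among the genes of filament branching, 4 of the 5 Arp2/3 subunit genes were higher in injured cells and Coro1a was lower. Arpc5 stood at 288 and 478 CPM (log2 0.73, 0.59 to 0.87), Arpc3 at 321 and 485 CPM (0.60), Arpc2 at 808 and 1188 CPM (0.56, but 0.09 without cells carrying at least 2 UMIs of S, G2 or M phase genes) and Arpc1b at 785 and 975 CPM (0.31). Arpc4, the other of these 5 genes, stood at 551 and 511 CPM, with a log2 ratio of −0.11 that was above 0 under TMM and DESeq2 scaling. Its share of the 5 subunits' UMIs lay between 19.0% and 21.1% in uninjured and between 13.4% and 14.7% in injured cells. Arpc4 overlaps Ttll3 on the same strand, so the split of reads between them is uncertain. Coro1a, coronin 1A, a leukocyte protein that binds filaments and the Arp2/3 complex, stood at 581 and 368 CPM and had a log2 ratio of −0.66 (−0.78 to −0.54). No gene of this group passed 2-fold.

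Capg had the highest ratio among capping genes. It encodes a macrophage protein that caps filament ends without cutting them (chromosome 6, 72544391 to 72562983), and it stood at 128 CPM in uninjured and 355 CPM in injured cells. The difference was 2.77-fold (log2 1.47, 1.28 to 1.67) and lay above 2-fold in all 15 alternative settings. Gsn, gelsolin, which severs and then caps, had only 27 and 91 UMIs (12.9 and 29.4 CPM, log2 1.19, 0.56 to 1.87), and its ratio was 0.40 in thinned cells. The genes of the heterodimeric capping protein showed smaller differences. Capza1 stood at 89.8 and 135 CPM (0.58), while Capza2 stood at 1163 and 1066 CPM (−0.13, but 0.02 under TMM or DESeq2 scaling) and Capzb at 496 and 508 CPM (0.03, interval including 0). Capza1 was the minor alpha subunit gene in both libraries, at 7.17% of the pair in uninjured and 11.2% in injured cells.

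In the myosin and tropomyosin group, the tropomyosin genes differed in opposite directions. Tpm4, which coats filaments in non-muscle cells (chromosome 8, 72134975 to 72153142), stood at 57.3 CPM in uninjured and 176 CPM in injured cells. It was 3.08-fold higher (log2 1.62, 1.33 to 1.92), and 0.98 on the log2 scale without cells carrying at least 2 UMIs of S, G2 or M phase genes. Tpm3, the major tropomyosin gene here, stood at 608 and 472 CPM (−0.37, −0.48 to −0.26), so that Tpm4 supplied 8.61% of the UMIs of this pair in uninjured and 27.2% in injured cells. Myl6, the essential light chain of non-muscle myosin, stood at 398 and 664 CPM (0.74, 0.62 to 0.85). Of the regulatory light chains, Myl12a stood at 301 and 396 CPM (0.39) and Myl12b at 239 and 214 CPM (−0.16, interval including 0). Myl12a and Myl12b are neighbouring, near-identical genes that both overlap a further same-strand model named Myl12b, so their split is uncertain. Myh9, the heavy chain, had 82 and 106 UMIs and an interval that included 0.

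The calponins, which bind filaments and tropomyosin, were scarce. Cnn2 had 72 UMIs in uninjured and 27 in injured cells (34.4 and 8.72 CPM), 3.94-fold lower in the injured library (log2 −1.98, −2.67 to −1.32) and at least 2-fold lower in all 14 settings that still measured it. Cnn3 had 2 and 18 UMIs, and 88.9% of the injured ones came from 10 cells. Its level was 68.4 CPM in cluster 8, whose leading genes Fabp7, Pllp and Gap43 are genes of other glia, and at most 5.89 CPM in every other cluster. The Cnn3 ratio was 2.61 on the log2 scale (0.54 to 5.76), and the part of these cells in it was not tested.

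Among genes that bundle filaments or tie them to the membrane, the abundant members differed by less than 2-fold. Cotl1, a coactosin that binds filaments, stood at 776 and 1116 CPM (0.52, 0.44 to 0.61). Marcksl1 and Lsp1, a membrane-linked filament binder and a leukocyte filament bundler, were lower in injured cells, at 755 and 547 CPM (−0.47) and at 139 and 95.3 CPM (−0.54). Ezr, ezrin, which links filaments to membrane proteins, had 17 and 63 UMIs (log2 1.33, 0.53 to 2.19), while its more abundant relative Msn, moesin, stood at 227 and 258 CPM (0.18). Marcks stood at 400 and 375 CPM (−0.10, but 0.05 under TMM or DESeq2 scaling) and Flna, filamin A, had 21 and 52 UMIs (0.74), both with intervals including 0. The sum over the 7 genes was 2316 CPM in uninjured and 2429 CPM in injured cells.

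Vim had the largest ratio of the 43. It encodes vimentin, the intermediate filament protein of migrating and activated cells (chromosome 2, 13573927 to 13582826). Vim had 47 UMIs in 31 uninjured cells and 589 UMIs in 215 injured cells, or 22.5 CPM (16.5 to 29.9) and 190 CPM (175 to 206). The injured level was 8.47-fold the uninjured one (log2 3.08, 2.65 to 3.54), with a range of 2.97 to 3.92 over the alternative settings. In the uninjured library 55.3% of its UMIs came from 10 cells, against 17.0% in the injured library. Without the 2 clusters lowest in microglial markers the log2 ratio was 3.62.

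The tubulin genes differed in make-up more than in sum. The 7 tubulins together stood at 2154 CPM in uninjured and 1781 CPM in injured cells (log2 −0.27, −0.33 to −0.22). TMM and DESeq2 scaling raise every log2 ratio by 0.14 and 0.15, which leaves this sum lower in injured cells. The sum of the 3 alpha genes had a log2 ratio of −0.40 (−0.48 to −0.33) and that of the 4 beta genes −0.11 (−0.20 to −0.02). The direction of the beta sum depended on the scaling, and its ratio was above 0 under TMM and DESeq2 scaling. Within the sums, Tuba1a (chromosome 15, 98949837 to 98953703) stood at 370 and 154 CPM (log2 −1.26, −1.43 to −1.10) and Tubb2a (chromosome 13, 34074274 to 34078007) at 365 and 147 CPM (−1.31, −1.48 to −1.14). Both isotypes, known as abundant in neurons, were lower in the injured library. Each was past 2-fold in 12 of 15 alternative settings. The exceptions left log2 ratios no nearer 0 than −0.80 for Tuba1a and −0.89 for Tubb2a.

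Of the other isotypes, 3 were higher and 2 lower. Tuba1b, the major alpha tubulin gene here, stood at 815 and 687 CPM (−0.24), and Tuba1c at 80.3 and 115 CPM (0.52, 0.25 to 0.79). Tubb5 stood at 349 and 485 CPM (0.47, 0.35 to 0.60), Tubb4b at 118 and 74.3 CPM (−0.67), and Tubb6 at 57.3 and 118 CPM (1.04, 0.74 to 1.35). Tubb6 had the highest ratio of the beta isotypes, and this was 0.74 among cells with Y-linked UMIs and no Xist UMI. Among the 3 alpha genes, Tuba1a made up 29.2% (27.5 to 31.0) of UMIs in uninjured and 16.1% (14.8 to 17.5) in injured cells. Among the 4 beta genes, Tubb2a made up 41.0% (38.8 to 43.3) and 17.9% (16.4 to 19.4), and Tubb5 39.3% (37.1 to 41.5) and 58.8% (56.9 to 60.8). Tuba1b thus led the alpha genes in both libraries, whereas Tubb2a and Tubb5 had overlapping intervals in uninjured cells and Tubb5 led in injured cells. The tubulin genes are near-identical copies in their coding parts, and Tuba1a and Tuba1b both overlap Gm49450 on the same strand, so the split of reads among them is uncertain.

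**Figure D3:**
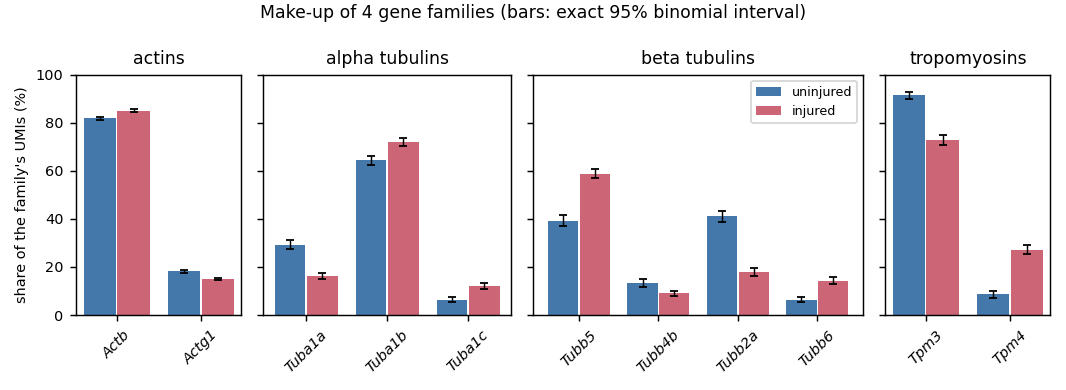
Share of each gene in the UMIs of its family, in uninjured (blue) and injured (red) cells, with exact 95% binomial intervals. Tuba1a and Tubb2a take smaller shares in injured cells (16.1% and 17.9%, from 29.2% and 41.0%), and Tubb5, Tuba1c, Tubb6 and Tpm4 take larger ones.

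Stmn1, stathmin, which binds free tubulin pairs and is known to be abundant in dividing cells, stood at 157 CPM in uninjured and 311 CPM in injured cells (log2 0.98, 0.80 to 1.17). The ratio was lower when cells with transcripts of division were set aside. It was 0.14 without cells that held 2 or more UMIs of the G2 and M phase list other than Cks2. This setting was added after the data were seen and left 691 uninjured and 482 injured cells. The Stmn1 ratio was −0.18 without cells that held 2 or more UMIs of the S, G2 and M phase lists, which left 334 and 145. The ratio of Tubb5 was 0.02 and −0.02 in these settings. Both settings used counts before thinning, so deeper cells were set aside more readily, and the part of depth was not tested.

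The link to division was examined inside the injured library, with cells sorted by their G2 and M phase UMIs after thinning. The 36 cells with at least 2 such UMIs had 1120 CPM of Stmn1, against 204 CPM in the 461 cells with none, a 5.50-fold difference (log2 2.46, 2.24 to 2.67). Tubb5 stood at 1274 and 376 CPM (3.39-fold), Tuba1b at 1759 and 554 CPM (3.18-fold), Tubb4b at 198 and 64.5 CPM (3.07-fold) and Tuba1c at 247 and 109 CPM (2.26-fold). These 5 were the only members at least 2-fold higher, of 42 measured, where 7.86% of all genes were, and 0 were at least 2-fold lower, where 11.5% were. Tubb2a went the other way, at 80.9 CPM against 152 CPM (log2 −0.91, −1.64 to −0.26), as did Tubb6 at 72.8 and 126 CPM (−0.79, −1.56 to −0.10). Actb was level between these cells, at 6486 and 6610 CPM (interval including 0), and Tmsb4x stood at 31756 and 21956 CPM (0.53). The 36 cells were also deeper, with a median of 6968 UMIs against 4256, and the part of depth was not tested.

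**Figure D4:**
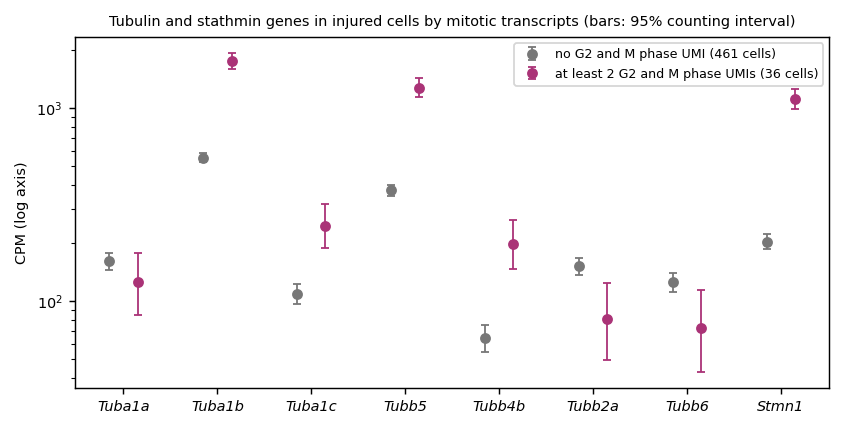
CPM (log axis) of the tubulin and stathmin genes in injured cells with no G2 and M phase UMI (461 cells, grey) and with at least 2 (36 cells, purple), with 95% counting intervals. Stmn1, Tubb5, Tuba1b, Tubb4b and Tuba1c are higher in the second set, Tubb2a and Tubb6 lower, and the intervals of Tuba1a overlap.

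To see which cells carried the differences, the cells of both libraries were clustered without the 43 genes and without 131 other cytoskeleton genes, giving 10 clusters that are called here by number. Uninjured cells lay mainly in clusters 1 (228 cells), 4 (250) and 3 (81), and injured cells in clusters 6 (202 cells) and 10 (154). The leading genes of cluster 10 were Lpl, Igf1 and Fn1, and those of cluster 6 Ccl5 and Slc7a11. Cluster 2 (54 cells, 44 of them injured) was led by H2-Eb1 and H2-Aa. It had the lowest sum of the microglial markers (9318 CPM) and the highest of border macrophage (1545 CPM) and dendritic cell markers (747 CPM). Cluster 9 was led by the interferon genes Rsad2 and Ifit3, and cluster 7 (21 cells, 20 injured) by the mitotic genes Nusap1 and Ube2c. Cluster 1 was led by Cldn5 and Fabp4, genes of endothelial cells, and had the highest sums of both the endothelial markers (322 CPM) and the microglial markers (28225 CPM). The clusters were given no type names. A cluster mostly of 1 library may be that library rather than a kind of cell.

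Actb varied across clusters and Actg1 little. Actb ranged from 2620 CPM in cluster 5 to 15086 CPM in cluster 3, with 9299 CPM in cluster 9 as the next highest. Actg1 ranged only from 827 to 1536 CPM and stood at 1025 CPM in cluster 3. Among uninjured cells, cluster 3 had 13654 CPM of Actb and cluster 4 had 2764 CPM (log2 2.30, 2.23 to 2.38). Since cluster 3 was picked as the one highest in Actb, this difference is a description. Of 38 measured members Actb was the only one at least 2-fold higher (2.83% of all genes), and 0 were at least 2-fold lower (5.26%). Tmsb4x stood at 13064 and 12933 CPM there, and Pfn1 and Cfl1 had intervals that included 0. Besides Actb, Tpm3 (0.41), Lsp1 (0.85) and Tubb5 (0.76) had intervals above 0, and Tuba1a (346 and 474 CPM, −0.45) and Tubb2a (420 and 550 CPM, −0.39) had intervals below 0. Cluster 3 held 81 uninjured and 34 injured cells.

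Clusters 1 and 4, which together held most uninjured cells, differed in several tubulins. In uninjured cells of cluster 4 against those of cluster 1, Tubb2a stood at 550 and 188 CPM (log2 1.55, 1.25 to 1.85), Tubb4b at 142 and 51.7 CPM (1.45), Tuba1c at 96.2 and 20.4 CPM (2.24), Stmn1 at 213 and 92.4 CPM (1.21) and Marcksl1 at 929 and 230 CPM (2.01). With Tubb6 (2.35, 1.18 to 3.75), these 6 of 38 measured members were at least 2-fold higher in cluster 4, where 6.71% of all genes were, and Actb (−1.03) and Myh9 (−1.42) were at least 2-fold lower, where 2.53% were. Of the tubulins, only Tubb5 did not stand higher (−0.23, interval including 0). The early-response genes of dissociation stood at 22627 CPM in these cells of cluster 4 and 10866 CPM in those of cluster 1, and their part in the tubulin differences was not tested.

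Among injured cells, cluster 10 was set against cluster 6. Vim stood at 278 and 83.9 CPM (log2 1.73, 1.35 to 2.12), Actb at 8782 and 3699 CPM (1.25), Capg at 482 and 216 CPM (1.16), Tpm4 at 240 and 112 CPM (1.10) and Gsn at 35.3 and 4.94 CPM (2.84). These 5 of 42 measured members were at least 2-fold higher (6.99% of all genes), and Tubb2a (68.3 and 207 CPM, −1.60), Marcksl1 (443 and 898 CPM, −1.02) and Cnn2 (−1.69) at least 2-fold lower (7.55%). Of the 7 genes at least 2-fold higher in the injured library as a whole, Vim, Capg, Tpm4 and Gsn were thus also higher in cluster 10 than in cluster 6 within it. Tubb6, another of the 7, was lower in cluster 10, at 114 CPM in cluster 10 and 184 CPM in cluster 6 (−0.69, −1.03 to −0.36). Cells of cluster 10 were deeper, with a median of 8373 UMIs against 3760, and the part of depth was not tested.

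**Figure D5:**
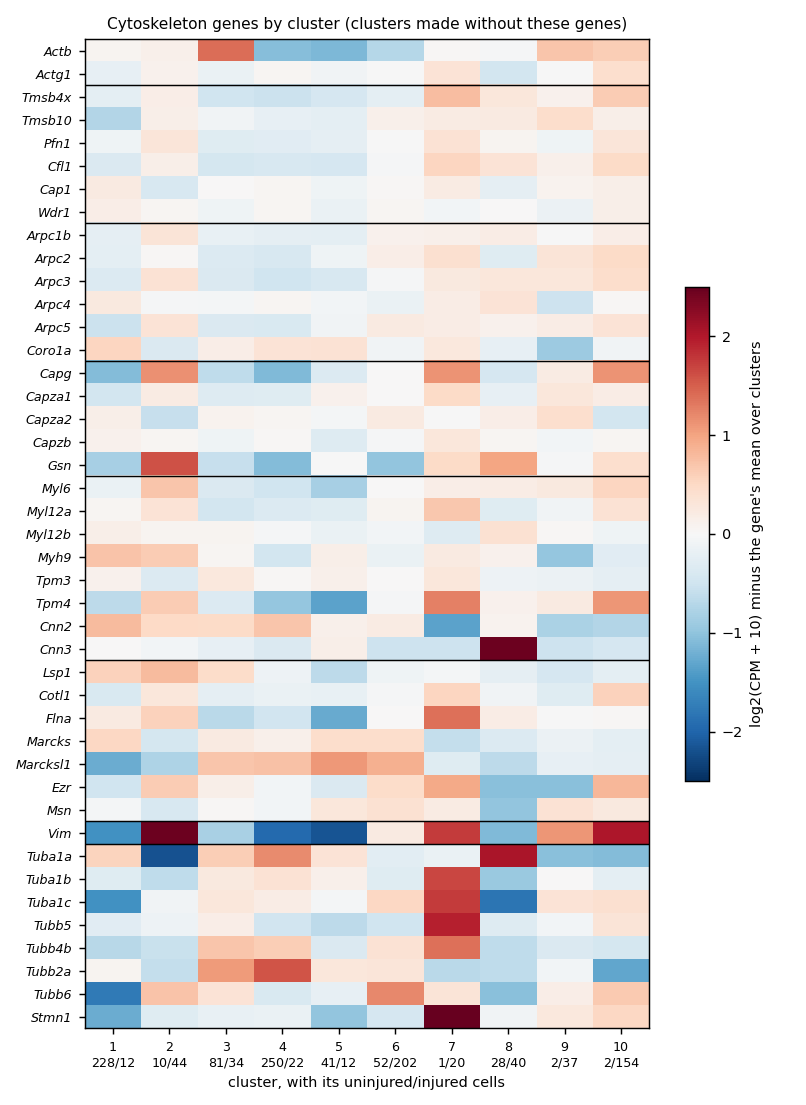
Level of each of the 43 genes in 10 clusters, as log2(CPM + 10) minus the gene's mean over clusters, with the uninjured and injured cells of each cluster below its number. Red marks levels above the gene's mean: Actb in cluster 3, Vim in clusters 2, 7 and 10, Stmn1 and most tubulins in cluster 7, Tubb2a in cluster 4, and Tuba1a and Cnn3 in cluster 8.

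Cluster 7, which did not separate at a clustering resolution of 0.5, held the highest levels of Stmn1 (1466 CPM, next 335 CPM), Tubb5 (1688 CPM, next 540 CPM), Tuba1b (2414 CPM, next 968 CPM) and Tuba1c (311 CPM, next 127 CPM). Vim was highest at 377 CPM in cluster 2, the cluster lowest in microglial markers, followed by cluster 10 at 277 CPM. It stood at 5.89 to 30.2 CPM in clusters 1, 3, 4 and 5. Tuba1a was highest in cluster 8 (855 CPM), followed by cluster 4 (468 CPM), and Tubb2a in cluster 4 (562 CPM). The summed level of the branching genes lay between 3144 and 4355 CPM in every cluster.

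Libraries could be compared within a cluster only where both had at least 20 cells, in clusters 3, 4, 6 and 8. Within cluster 6 (52 uninjured and 202 injured cells), Vim stood at 22.6 and 83.9 CPM (log2 1.89, 0.47 to 3.81), on 4 and 68 UMIs. Tuba1a stood at 311 and 134 CPM (−1.21, −1.69 to −0.72) and Tubb4b at 260 and 81.4 CPM (−1.68, −2.24 to −1.10). They were the only 3 of 38 measured members 2-fold apart there, 1 higher (8.01% of all genes) and 2 lower (5.24%). In cluster 3, with 34 injured cells, 0 of 36 members were 2-fold higher (3.77% of all genes) and 1, Cap1, lower (8.54%). In cluster 4, with 22 injured cells, 0 of 38 were higher (7.01%) and 4 lower (13.1%), namely Cap1, Capg, Marcksl1 and Tubb4b. The intervals of Capg (78 and 3 UMIs) and Tubb4b (109 and 5 UMIs) included 0, and Cap1 had 1 injured UMI. With a count of 0 taken as 3, Tubb6 (43 and 0 UMIs) and Cnn2 (26 and 0 UMIs) did not reach 2-fold. In cluster 8, 3 of 29 were higher (19.3%), namely Tuba1a, Marcksl1 and Stmn1, and Coro1a alone was lower (5.13%). There Tuba1a stood at 214 CPM in uninjured and 1088 CPM in injured cells (2.35, 1.43 to 3.44, on 10 and 140 UMIs). Of those 140 UMIs, 55 came from 1 cell and 108 from 5 cells, so the injured level in this cluster rests on a few cells. The same held for Marcksl1 (2 and 56 UMIs, 44 of the latter from 5 cells). It also held for Stmn1 (0 and 38 UMIs, 32 of the latter from 5 cells), whose uninjured 0 was taken as 3 counts. The actins differed from each other within clusters as well. Actg1 was lower in injured cells in cluster 3 (−0.43, −0.77 to −0.11), cluster 4 (−0.94, −1.40 to −0.52) and cluster 6 (−0.34, −0.55 to −0.13), and its interval included 0 in cluster 8 (0.19). Actb was higher in injured cells in cluster 3 (0.41, 0.34 to 0.49) and cluster 6 (0.50, 0.36 to 0.65), lower in cluster 4 (−0.25, −0.49 to −0.02), and its interval included 0 in cluster 8 (0.19).

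P2ry12, a purinergic receptor of resting microglia, was used to split the injured cells. In the 136 injured cells with at least 3 P2ry12 UMIs after thinning, Vim stood at 60.7 CPM, and in the 218 cells with none at 251 CPM (log2 2.05 for the latter over the former, 1.53 to 2.62). Capg (180 and 454 CPM) and Tpm4 (92.9 and 203 CPM) were likewise higher in cells without P2ry12, by log2 1.33 and 1.13, and Tubb2a was lower, at 252 and 109 CPM (−1.21). With Gsn, 4 of 41 measured members were at least 2-fold higher in cells without P2ry12 (8.19% of all genes) and Tubb2a alone lower (7.56%). Median depth also differed, at 3721 and 6436 UMIs.

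The injured cells with at least 3 P2ry12 UMIs were also set against the uninjured library, the same control as in the ratios above. The uninjured cells were not selected by P2ry12 or depth, and 469 of 604 thinned uninjured cells had at least 3 P2ry12 UMIs. The sides thus also differed in selection, and its part was not tested. Vim was higher in them by log2 1.43 (0.74 to 2.11), Tubb6 by 1.15 (0.69 to 1.59), Arpc5 by 0.70 (0.48 to 0.92) and Capg by 0.49 (0.14 to 0.84). Tuba1a was lower in them, with a log2 ratio of −0.85 (−1.16 to −0.56), as were Coro1a at −0.76 (−0.99 to −0.53), Tubb2a at −0.53 (−0.81 to −0.26) Actg1 at −0.16 (−0.30 to −0.03) and Cnn2 at −1.86 on 5 UMIs. For the whole injured library the values were 3.08 for Vim, 1.04 for Tubb6, 0.73 for Arpc5, 1.47 for Capg, −1.26 for Tuba1a, −0.66 for Coro1a, −1.31 for Tubb2a and 0.15 for Actg1.

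Other genes of the cytoskeleton, listed by role, had a lower median log2 ratio than the 43 genes, at −0.20 against 0.39. Of 132 listed genes, 131 were matched and 111 measured. Of the 111, 9 were at least 2-fold higher (7.22% of all genes) and 9 at least 2-fold lower (11.5%). The list of other intermediate filament and lamina genes went the other way, with a median of 1.31. In that list 3 of 5 measured genes were at least 2-fold higher and 0 at least 2-fold lower. A list of branching promoters and further Arp2/3 genes had a median of −0.27, with 9 of 18 intervals below 0 (25.8% of all genes) and 4 above (17.1%). In it Abi3, a subunit of the WAVE complex that activates Arp2/3, stood at 462 and 207 CPM (−1.15, −1.30 to −1.01). Formins, which elongate unbranched filaments, had a median of −0.42, with Fmnl3 at 44.4 and 18.1 CPM (−1.30) and Fmnl1 at 45.9 and 21.6 CPM (−1.08). Fscn1, fascin, which bundles filaments in thin protrusions, stood at 558 and 136 CPM (−2.04, −2.20 to −1.87), and Limk2, a kinase that inactivates cofilin, had 52 and 18 UMIs (−2.10). Genes for adhesion linkage had a median of −0.50, with 7 of 14 intervals below 0 (25.8% of all genes) and 0 above (17.1%). Higher were Tagln2, a transgelin that binds filaments, at 89.8 and 208 CPM (1.21, 0.98 to 1.45), the lamina genes Lmnb1 (38.7 and 129 CPM, 1.74) and Lmna (31.1 and 77.2 CPM, 1.31), the small GTPase gene Rhoc (1.10) and the myosin gene Myo1e (27 and 123 UMIs, 1.62). Tubb2b, a near-identical relative of Tubb2a, stood at 47.8 and 22.6 CPM (−1.08, −1.54 to −0.62).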

How the data were processed

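Cells of 2 libraries were profiled with droplet 3′ RNA sequencing with UMIs. The deposited values are UMI counts per gene and cell barcode, as the authors' matrices give them; the tools named per the submitters' processing notes are Cell Ranger 2.0.1, Seurat 2.1.0 and STAR, with build GRCm38.p5 (mm10). How each was applied, whether strand was used and how reads of near-identical copies were assigned is not given in the sources used here. From these counts, barcodes were dropped under 200 genes or above 10% mitochondrial UMIs, which removed 10 uninjured and 3 injured barcodes. No doublet caller was run, so doublets remain.

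UMIs were summed per library and scaled to CPM. Ratios carry exact conditional (Clopper-Pearson) 95% intervals, a count of 0 allows 3 counts, and genes with at least 20 UMIs over both libraries were called measured. For thinning, each cell was sampled to 1500 UMIs, which left out 91 uninjured and 10 injured cells. Injured cells were classed by G2 and M phase UMIs and by P2ry12 UMIs on the thinned counts. The alternative settings that set cells aside by the UMIs of a list used counts before thinning. Clustering used scanpy 1.11.5 (2000 variable genes, 20 components, 15 neighbours, resolution 0.8) without any cytoskeleton gene listed. Statistics used Python 3.11.15, scipy 1.17.1, edgeR 4.0.16 and DESeq2 1.42.0, the last 2 for scaling factors only. The ratios, their intervals and the thinning were tested on simulated Poisson counts, which hold no spread between animals. The other steps were not tested in this way. Positions are from GENCODE M21 and promoters from RefSeq. The members and lists were chosen with earlier results of these data known. Full values were given for members at least 2-fold apart, otherwise for the 3 farthest from 0 in a group, and for Actb, Actg1, Tmsb4x, Tmsb10, Vim and all tubulins. Of other lists, at most 3 genes were named from among those whose intervals lay farthest from 0.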

Additional observations from a re-analysis of the deposited data

How the results depend on the processing

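Over 15 alternative settings, 34 of the 43 genes kept the sign of their log2 ratio, and the 9 that did not were Actg1, Cap1, Wdr1, Arpc4, Capza2, Capzb, Marcks, Tubb5 and Stmn1. Of the 10 genes at least 2-fold apart, Vim, Capg, Cnn2, Cnn3 and Ezr stayed so in each setting that measured them, and Stmn1 passed 2-fold in 4 settings. Vim and Capg were measured in all 15 settings, Cnn2 in 14, Ezr in 12 and Cnn3 in only 6, so the last was checked least. The causes of the shifts below were not tested. TMM and DESeq2 scaling both gave a median of 0.54 for the 43 genes, 0.55 for monomer binding and turnover, 0.58 for branching and 0.26 for tubulin and stathmin. A minimum of 100 UMIs gave 5 of 82 other cytoskeleton genes at least 2-fold higher (5.30% of all genes) and a bundling median of −0.10. Thinning gave 4 of 41 measured members and 5 of 94 other genes higher (5.46% of all genes). The mean of per-cell CPM gave 1 of the 43 lower (10.0% of all genes) and medians of 0.33 for monomer binding and 0.31 for branching. Cells holding at least 2 UMIs of S, G2 or M phase genes were also set aside. This left 4 of 40 measured members higher (5.18% of all genes) and 1 lower (12.5%), and 5 of 89 other genes higher. The medians were then 0.085 over the measured members, 0.19 for monomer binding, 0.23 for branching, −0.12 for bundling and −0.43 for tubulin and stathmin. Cells with Y-linked UMIs and no Xist UMI (235 uninjured, 147 injured) gave 0.29 for monomer binding. The median of the myosin group (0.12 in all cells) was −0.11 after thinning, −0.18 without the 2% of cells with most UMIs, −0.25 in the Y-linked cells and −0.21 without cells holding at least 3 UMIs of another marker list. In 3 settings chosen after seeing the data it was −0.14 without cells holding at least 2 UMIs of G2 and M phase genes, −0.19 without the 2 clusters lowest in microglial markers and −0.15 without the cluster highest in Actb. The first of these also gave 0.23 over the 43 genes and −0.27 for tubulin and stathmin. A clustering resolution of 0.5 gave 8 clusters and none led by mitotic genes. Stmn1 was then highest in the cluster led by Spp1 and Igf1 at 414 CPM, so its peak of 1466 CPM depends on the resolution. The peaks of Tubb5, Tuba1b and Tuba1c in cluster 7 depend on it too. Their highest levels at 0.5 were 625, 951 and 129 CPM. Vim, Actb and Cnn3 were highest in clusters led by H2-Eb1, Bmp2k and Fabp7, genes that lead their highest clusters at 0.8 too. The cluster led by H2-Eb1 was lowest in microglial markers at both resolutions. No paired analysis was possible because each group had 1 library. Counts below 20 UMIs in a library, as for Ezr and Cnn3, limit what these ratios show.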
